A study of Mus musculus with 8 samples.

Results

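Txnip and Klf10 are the 2 carbohydrate-responsive genes described here, out of 3278 genes in the deposited table of RNA levels in MIN6-K8 cells. Both were chosen by their measured values in the comparison of cells treated with selenomethionine (SeMet) against untreated cells, so their levels below are a description and carry no test. The cells are a clonal insulin-secreting subline of MIN6, a mouse insulinoma that arose in an IT6 mouse, labelled as wild type. The 4 control libraries came from untreated cells and the 4 SeMet libraries from cells given 40 µM SeMet for 6 days, all grown in 24-well dishes. SeMet is methionine with selenium in place of sulfur. The series asked how this amino acid alters insulin secretion by the line.

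Cells read their sugar supply partly through the transcription factors ChREBP (gene Mlxipl) and MondoA (gene Mlxip), which pair with Mlx and bind carbohydrate response elements when phosphorylated sugars build up. Txnip encodes thioredoxin-interacting protein, an alpha-arrestin that binds reduced thioredoxin and draws glucose transporters off the cell surface. It is among the genes that glucose induces most strongly in islets, and excess Txnip is known to harm beta cells. Klf10 encodes a zinc finger repressor first described as a TGF-beta-inducible early gene. In mouse liver it is known to be induced by glucose through ChREBP and to follow the clock.

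Txnip (ENSMUSG00000038393) lies on the plus strand of chromosome 3, at 96557957 to 96561883 of GRCm38, the assembly also called mm10. It is a protein-coding gene with 6 merged exons that cover 3123 bases. Klf10 (ENSMUSG00000037465) lies on the minus strand of chromosome 15, at 38291463 to 38300706, and is protein-coding, with 10 merged exons that cover 4179 bases. Exons of Gm15441, a noncoding gene annotated antisense to Txnip, overlap 606 bases, or 19.4%, of the Txnip exons. No source used here says whether the counting used strand, so reads of Txnip and of Gm15441 in the shared part cannot be told apart. Gm15441 was not analysed here. No other annotated gene shares exonic bases with Txnip, and none does with Klf10.

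The promoter of Txnip is shown because it carries, close to the start site, a pair of sites of the kind that ChREBP and MondoA are known to bind. The window runs from 250 bases before to 50 bases after the RefSeq start site and was copied from RefSeq on GRCm38.p6, for chr3:96557707-96558006, plus strand. Capitals mark every core site CACGNG on either strand. The promoter of Rgs16, a known ChREBP target in islets, is shown in the same way (chr1:153740103-153740402, plus strand). It was chosen because its profile over the 8 libraries lay nearest to that of Txnip among the genes compared, as described below. That comparison includes the difference between groups for which Txnip was chosen. Of the 2 members, Txnip matched the promoter table.
Txnip: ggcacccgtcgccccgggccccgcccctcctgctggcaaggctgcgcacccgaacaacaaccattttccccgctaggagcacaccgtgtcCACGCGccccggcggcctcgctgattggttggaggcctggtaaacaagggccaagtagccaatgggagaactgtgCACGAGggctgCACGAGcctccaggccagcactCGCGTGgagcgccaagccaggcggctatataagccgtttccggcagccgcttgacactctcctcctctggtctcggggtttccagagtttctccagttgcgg
Rgs16: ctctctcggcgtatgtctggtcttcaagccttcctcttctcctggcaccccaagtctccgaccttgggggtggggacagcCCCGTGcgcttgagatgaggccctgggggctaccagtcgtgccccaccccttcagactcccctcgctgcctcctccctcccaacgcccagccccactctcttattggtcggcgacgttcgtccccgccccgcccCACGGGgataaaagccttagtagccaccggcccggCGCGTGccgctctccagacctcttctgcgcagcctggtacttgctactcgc

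In Txnip 2 core sites stand 5 bases apart on the same strand, from 85 to 69 bases before the start site, at chr3:96557872-96557888. This stretch reads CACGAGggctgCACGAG, with the core sites in capitals. The form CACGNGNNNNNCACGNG, read on both strands and chosen with this promoter in view, occurred in 16 of 32817 promoter windows of the same length, or 0.0488%. Rgs16 held 3 core sites and no such pair. The single core site was common, with a match in 27.5% of all windows. The Txnip window also held the CCAAT box (CCAAT, 2 matches, 37.4% of windows). A TATATAA box lay at 27 to 21 bases before the start (3.25% of windows), a form also chosen with this promoter in view. The form TATAAA, found in 13.6% of windows, had no match in it. The window held the GC box GGGCGG (35.6% of windows) and CACCC box (57.5% of windows), both motifs that Sp and KLF proteins are known to bind. Among the 2516 listed genes with a window, counted once per gene, 46.6% held the core site and 0.199% the spaced pair. The GC box was in 72.3% of these genes, the CACCC box in 70.6% and the CCAAT box in 44.2%. TATATAA was in 1.71% and TATAAA in 8.31%. The matches describe the sequence alone.

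**Figure D1:**
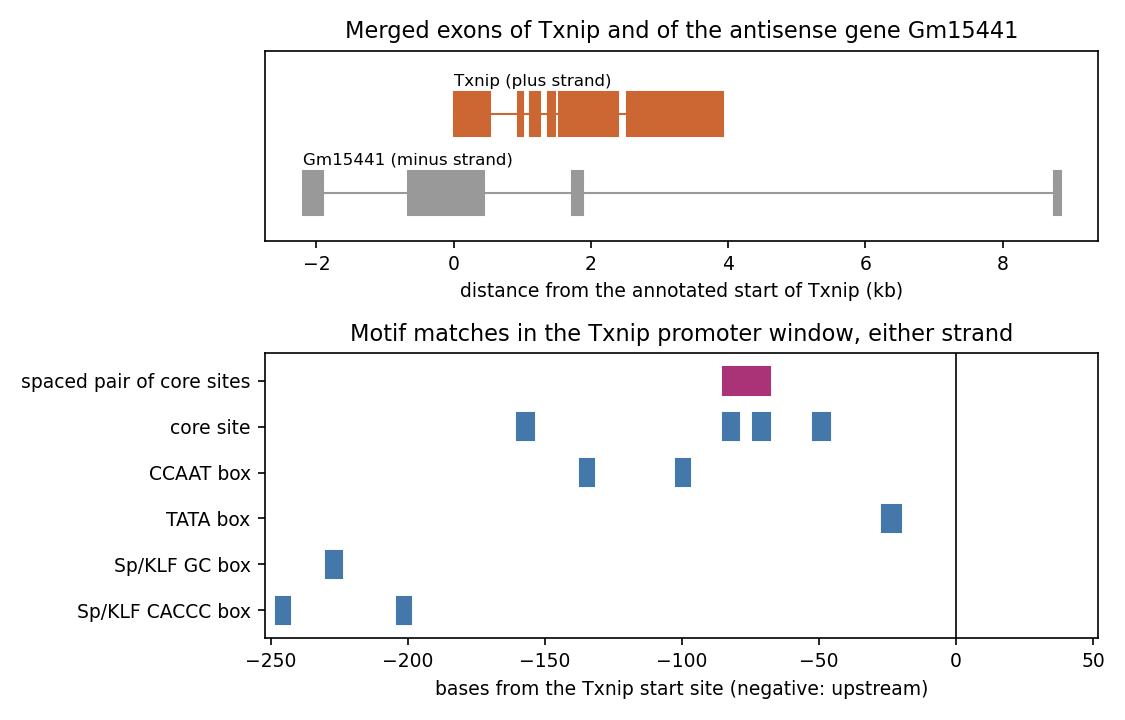
Upper panel, merged exons of Txnip and of the antisense gene Gm15441 as boxes, against the distance from the Txnip start in kb; lower panel, motif matches in the 300 bases of the Txnip promoter window, against bases from the start site. The spaced pair of core sites lies between the CCAAT boxes and the TATA box.

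The values are called normalised counts here, since they appear to be reads per gene divided by 1 size factor per library, which the sources used here do not state. The listed genes summed to 9083490 to 9858270 normalised counts per library, and the depth in reads is unknown. The table is, by its name, a list of differentially expressed genes. In limma, with p-values adjusted over the listed genes and a threshold of 0.05, 3277 of the 3278 passed, 100% to 3 digits, with 47% of the table higher and 53% lower under SeMet. Passing this test therefore says nothing particular about any one gene. A stricter adjustment over all 55450 annotated genes, with every unlisted gene counted as not passing, called 71.4%, with 33.1% higher and 38.2% lower. The libraries of the groups did not overlap in 85.8% of listed genes, and 40.3% of listed genes were higher with no overlap. Of 15 defining beta cell markers 13 were listed, among them Ins2, Ins1, Iapp, Pdx1 and Mafa, with 2 higher and 11 lower over the listed genes, 1 and 9 under the stricter adjustment, and a median log2 fold change of -0.17. Being listed reflects a difference between the groups and does not identify the cells. The levels show that the insulin genes were expressed, with control means of 1372590 for Ins2 and 436419 for Ins1. None of the markers of acinar, endothelial or immune cells was listed (0 of 10, 0 of 6 and 0 of 7), and those levels were not analysed here. Of 7 duct markers Krt7 was listed, at 9518 to 10350 in controls and 10794 to 11740 under SeMet. Of 8 stromal markers Col1a1 was listed, at 11.1 to 20.1 in controls and 2.78 to 9.57 under SeMet. The part of these 2 genes in the results was not tested. In bulk RNA, a change in the number of cells of a type and a change in RNA per cell cannot be told apart.

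Txnip was at 738, 768, 601 and 709 normalised counts in controls 1 to 4. Under SeMet it was at 2233, 2467, 1789 and 1688 in libraries 1 to 4. Every SeMet library lay far above every control, with the lowest SeMet value 2.20 times the highest control value. Of listed genes 40.3% were higher with no overlap between the groups. The means were 704 ± 72.6 (SD, n = 4) in controls and 2044 ± 368 (SD, n = 4) under SeMet, a ratio of 2.90. The log2 fold change was 1.52 ± 0.14 (SE). Among the 1541 listed genes that were higher under SeMet, Txnip ranked 12 by log2 fold change over all levels.

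Klf10 was at 860, 794, 763 and 792 in controls 1 to 4, and at 1133, 1211, 1107 and 1091 in SeMet libraries 1 to 4. Here too the groups did not overlap, as in 85.8% of listed genes. They lay closer together than for Txnip, with the lowest SeMet value 1.27 times the highest control value. The means were 802 ± 41.0 (SD, n = 4) and 1136 ± 53.0 (SD, n = 4), a ratio of 1.42 and a log2 fold change of 0.50 ± 0.05 (SE). By log2 fold change Klf10 ranked 298 of the 1541 higher genes over all levels, and its absolute change was larger than that of 80.2% of listed genes. The same figure for Txnip was 98.6%.

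**Figure D2:**
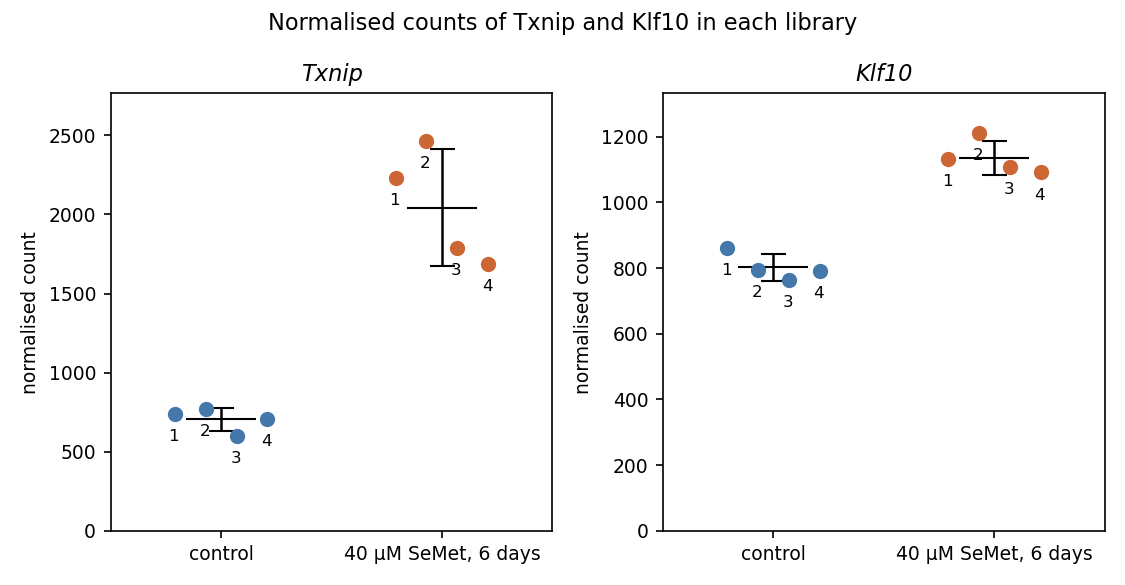
Normalised counts of Txnip (left) and Klf10 (right) in each of the 8 libraries, with the replicate number below each point; bars are the mean ± SD of 4 libraries. Txnip spans 601 to 768 in controls and 1688 to 2467 under SeMet, and Klf10 spans 763 to 860 and 1091 to 1211.

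The genes also differed in how evenly their libraries sat within a group. Under SeMet, Txnip had a coefficient of variation of 18.0%, while the median was 4.17% for the 1377 listed genes within 2-fold of its level, and 99.9% of those genes varied less. In controls its coefficient of variation was 10.3%, above that of 96.9% of the same genes. In a list of differentially expressed genes, those with a wide spread and a small change may be missing. These comparisons therefore hold among listed genes only. Klf10 varied like other listed genes of its level. It had 4.67% under SeMet against a median of 4.45% for 1334 genes, and 5.11% in controls against 4.78%. SeMet libraries 1 and 2 held the higher Txnip values, at 109% and 121% of the group mean, and libraries 3 and 4 the lower ones, at 87.5% and 82.6%. Klf10 had the same order of SeMet libraries over a narrower range, from 107% of its mean in library 2 to 96.1% in library 4. In controls both genes were lowest in library 3, and the highest was library 2 for Txnip and library 1 for Klf10. With 4 libraries per group, a relation between the genes within a group cannot be tested.

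**Figure D3:**
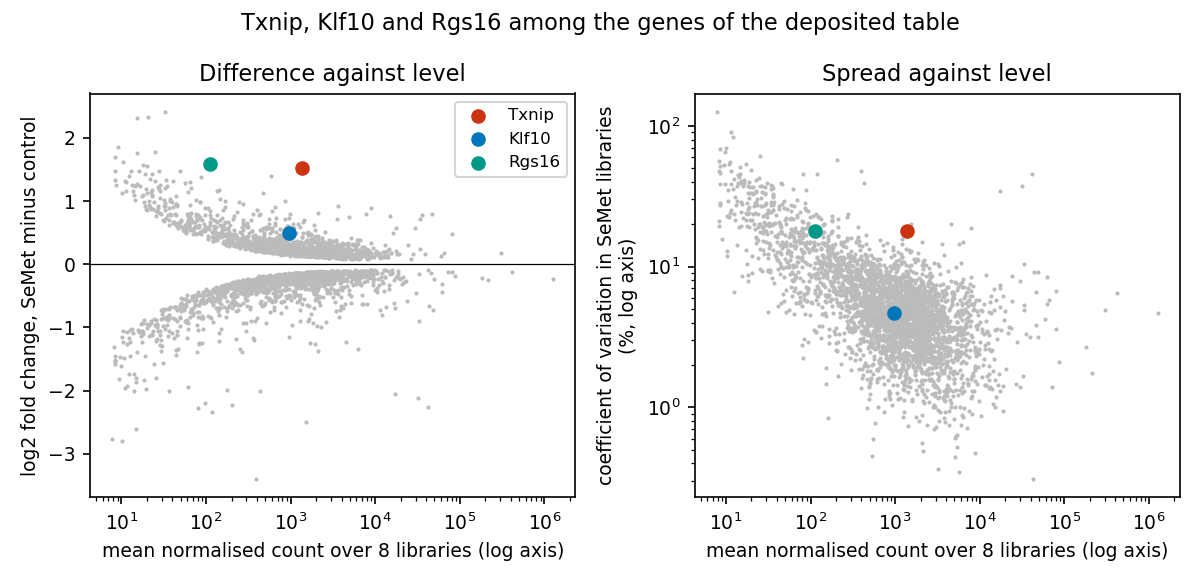
Left, log2 fold change against mean normalised count (log axis) for the 3278 listed genes, in grey; right, coefficient of variation in the 4 SeMet libraries against the same level, both axes logarithmic. Txnip stands above most listed genes of its level in both panels. Klf10, with a coefficient of variation of 4.67%, sits in the middle of the right panel.

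Per length, Txnip and Klf10 were at similar levels in untreated cells and apart under SeMet. In controls Txnip held 225 ± 23.2 normalised counts per kb of exon and Klf10 192 ± 9.81 (SD, n = 4 each). Under SeMet these levels were 655 ± 118 and 272 ± 12.7. The ratio of Txnip to Klf10 per length was 1.05 to 1.29 in the 4 controls and 2.07 to 2.73 in the 4 SeMet libraries. On the log2 scale of the normalised counts, Txnip minus Klf10 was -0.19 ± 0.12 in controls and 0.83 ± 0.20 under SeMet (SD, n = 4 each), so that the log2 fold changes differed by 1.02.

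Of 15 genes of the sensing network and related factors (ChREBP, MondoA, their partners, the Max network and others such as Tfeb), 5 were listed. Mlxipl, Mlxip and Mlx were not among the listed genes and were not analysed here. Of these 5, 2 passed as higher and 3 as lower over the listed genes, and 1 and 2 under the stricter adjustment. Their median log2 fold change was -0.25 against -0.13 for the whole table, of which 47% was higher and 53% lower. Mxi1, a Max partner that opposes Myc, fell from 1422 ± 73.0 to 1016 ± 84.0 (log2 fold change -0.49 ± 0.06). Mxd1, of the same repressor family, fell by 0.30 ± 0.06 on the log2 scale. Myc, which competes with them for Max, rose from 170 ± 14.6 to 235 ± 20.5 (0.47 ± 0.09). Tfeb, a regulator of lysosomal genes, was at 375 ± 30.1 and 315 ± 7.58 and did not pass the stricter adjustment (limma adjusted p = 0.0631).

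Of 34 other genes known as targets of ChREBP or MondoA, 13 were listed. Over the listed genes 9 passed as higher and 4 as lower, and under the stricter adjustment 6 and 4. The median log2 fold change was 0.20, while that of the table was -0.13. Of the 13, 3 had a change at least as large in size as that of Klf10. The largest was in Rgs16, which encodes a GTPase-activating protein that damps signalling from G protein-coupled receptors. It was at 42.5, 62.1, 57.1 and 60.1 normalised counts in controls 1 to 4, and at 204, 185, 150 and 139 in SeMet libraries 1 to 4. Rgs16 thus rose in all 4 SeMet libraries with no overlap, the case for 40.3% of listed genes. The log2 fold change of Rgs16 was 1.59 ± 0.15. Exons of Gm28513 overlap 10.1% of Rgs16.

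Gpd1, the glycerol 3-phosphate dehydrogenase of the cytosol, rose from 58.0 ± 18.8 to 112 ± 12.0 (0.98 ± 0.18), and exons of Gm16537 overlap 13.0% of it. Tkfc, which phosphorylates triose sugars from fructose, rose from 613 ± 29.5 to 779 ± 25.2. Mid1ip1, a protein that aids acetyl-CoA carboxylase, rose from 2409 ± 136 to 3062 ± 261. The fatty acid elongase gene Elovl6 rose from 708 ± 53.6 to 888 ± 60.2. These 3 genes had log2 fold changes of 0.33 to 0.35. The lipid synthesis genes Scd2 (0.24 ± 0.07) and Fasn (0.17 ± 0.07), and G6pc2 (0.12 ± 0.04), the islet glucose 6-phosphatase gene, did not pass the stricter adjustment. Fasn also lost its call over the listed genes when 1 of 5 libraries was left out, with adjusted p from limma of 0.068 to 0.105.

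The 4 targets that fell include a phosphatase subunit and a clock gene. Ppp1r3b, a subunit that brings phosphatase to glycogen, fell from 248 ± 23.2 to 165 ± 19.0 (-0.59 ± 0.10). Bhlhe41, a clock repressor, fell from 3078 ± 226 to 2316 ± 122 (-0.41 ± 0.05), with 19.0% of its exons overlapped by Gm43909. Acly, which makes cytosolic acetyl-CoA, and Slc2a2, the main glucose transporter of mouse beta cells, fell, with log2 fold changes of -0.18 ± 0.04 and -0.17 ± 0.04. The alpha-arrestin gene most like Txnip, Arrdc4, was not listed and was not analysed here. Of 5 alpha-arrestins other than Txnip, Arrdc3 was listed. It rose from 1063 ± 54.8 to 1308 ± 137 (0.29 ± 0.06), with its highest value, 1478, in SeMet library 3, where Txnip was lower than its mean.

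**Figure D4:**
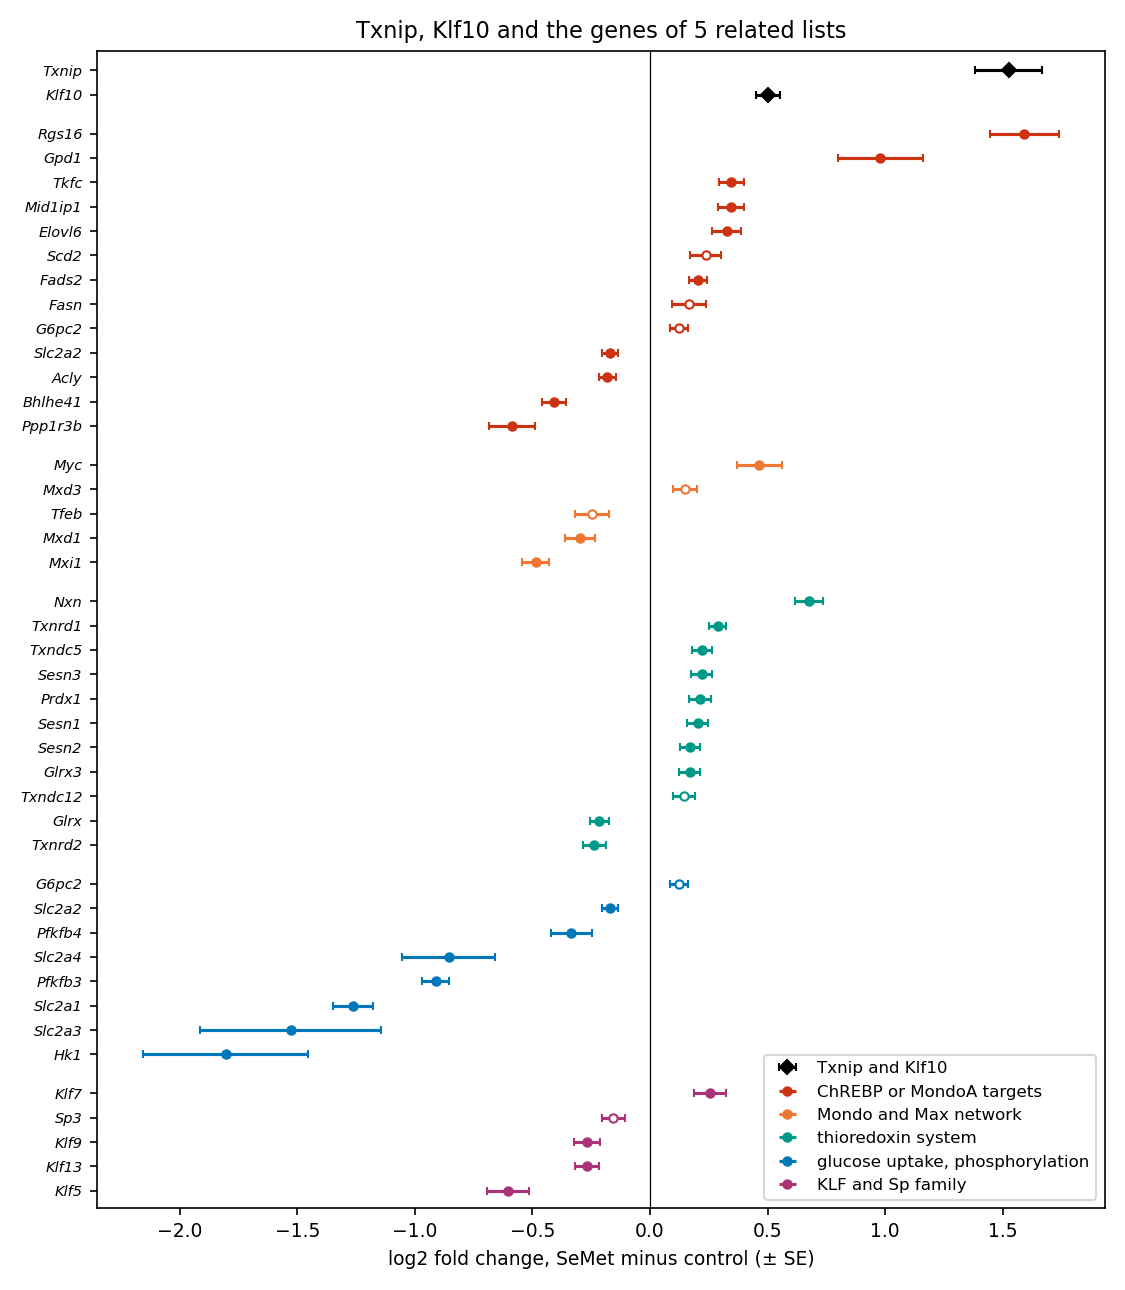
Log2 fold change (SeMet minus control, ± SE) of Txnip, Klf10 and the listed genes of 5 related lists; open circles did not pass the adjustment over all annotated genes. Rgs16 is the target nearest to Txnip in size, and 7 of the 8 genes labelled glucose uptake, phosphorylation lie on the negative side. The phosphatase gene G6pc2, in the same list, lies on the positive side.

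Txnip protein blocks thioredoxin. Of 25 genes of the thioredoxin system 11 were listed, 9 higher and 2 lower over the listed genes and 8 and 2 under the stricter adjustment. Their median was 0.20 against -0.13 for the table, of which 47% was higher and 53% lower. Nxn, encoding the thioredoxin relative nucleoredoxin, rose from 1086 ± 65.4 to 1738 ± 148 (0.68 ± 0.06). Txnrd1, the reductase that recharges thioredoxin in the cytosol, was at 3721, 3570, 3464 and 3513 in controls and at 4438, 4337, 4327 and 4305 under SeMet. Its groups did not overlap, as in 85.8% of listed genes, and it rose by 0.29 ± 0.04 on the log2 scale. Txndc5, a disulfide isomerase of the endoplasmic reticulum, rose from 2508 ± 144 to 2924 ± 60.8. Txnrd2, the mitochondrial reductase, fell from 1174 ± 56.7 to 995 ± 37.2 (-0.24 ± 0.05). The thioredoxin genes Txn1 and Txn2 were not listed and were not analysed here.

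Of 20 genes whose products are known to bind, control or be controlled by Txnip protein, 8 were listed. Under either adjustment 4 were higher and 4 lower. Their median was -0.03 against -0.13 for the table, of which 47% was higher and 53% lower. Slc2a1, the glucose transporter that Txnip is known to pull from the cell surface, was at 3016, 3008, 2427 and 2446 in controls and at 1151, 1236, 1128 and 1008 under SeMet. It fell with no overlap between the groups, as 85.8% of listed genes had none, and its log2 fold change was -1.26 ± 0.09. Slc2a4, the insulin-responsive transporter, which Txnip also binds, fell from 40.3 ± 5.79 to 21.7 ± 2.05. Ddit4, an mTORC1 inhibitor known to form a complex with Txnip, fell from 2312 ± 292 to 1427 ± 177 (-0.70 ± 0.12). Cops5, a subunit of the COP9 signalosome, rose from 1625 ± 88.3 to 1920 ± 29.8.

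Of 16 genes of glucose uptake and sugar phosphate handling, 8 were listed. Over the listed genes 7 were lower and 1 higher, the phosphatase gene G6pc2, whose product removes the phosphate. The median of these 8 was -0.88 against -0.13 for the table, of which 53% was lower, and the other 8 were not analysed here. The 7 lower genes also passed the stricter adjustment in limma, and G6pc2 did not. Hk1, a hexokinase normally low in beta cells, fell from 39.0 ± 7.31 to 11.9 ± 7.30 (-1.81 ± 0.35). Slc2a3, a high-affinity transporter, fell from 12.8 ± 2.60 to 4.05 ± 2.11, both low levels in the table. Pfkfb3, which sets the level of fructose 2,6-bisphosphate, fell from 3446 ± 229 to 1831 ± 139 (-0.91 ± 0.06).

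Of 25 other KLF and Sp genes, the family of Klf10, 5 were listed, 1 higher and 4 lower over the listed genes and 1 and 3 under the stricter adjustment. Their median was -0.27 against -0.13 for the table, of which 53% was lower, and the other 20 were not analysed here. Klf5, a factor of proliferating epithelia, fell from 263 ± 13.8 to 173 ± 16.5 (-0.60 ± 0.09). Klf13 and Klf9, both repressors like Klf10, fell by like amounts, with log2 fold changes of -0.27 ± 0.05 and -0.27 ± 0.06. Klf7 rose from 350 ± 20.2 to 418 ± 23.6 (0.25 ± 0.07), and exons of Gm26649 overlap 39.3% of it. Klf11, the nearest relative of Klf10, was not listed and was not analysed here.

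Klf10 was first found as a gene induced by TGF-beta and is known to repress Smad7. Of 34 ligands, receptors, SMADs, repressors and targets of this pathway 11 were listed. Over the listed genes 5 were higher and 6 lower, and under the stricter adjustment 5 and 4. Their median was -0.12 against -0.13 for the table, of which 47% was higher and 53% lower. The ligand gene Tgfb1 rose from 866 ± 91.0 to 1171 ± 58.9 (0.44 ± 0.07). Among targets of this signalling family, Id1, an inhibitor of helix-loop-helix factors, rose from 166 ± 31.5 to 329 ± 49.5 (0.99 ± 0.14) and Id3 from 1361 ± 173 to 1865 ± 150 (0.46 ± 0.09). The inhibitory SMAD genes went apart: Smad6 fell from 127 ± 12.5 to 91.8 ± 13.8, and Smad7 rose from 332 to 370 in controls to 441 to 461 under SeMet. The receptor gene Tgfbr1 and Smad4, the shared SMAD, did not pass the stricter adjustment. Once the libraries were rescaled to a median ratio of 1, neither passed over the listed genes (adjusted p from limma, 0.0852 and 0.0597).

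Klf10 is also known as an immediate early and a clock-controlled gene. Of 20 immediate early genes 5 were listed, 2 higher and 3 lower over the listed genes and 2 and 2 under the stricter adjustment. Their median was -0.30 against -0.13 for the table, of which 47% was higher and 53% lower. Atf3, a stress-induced factor, rose from 36.5 ± 4.83 to 92.0 ± 14.1 (1.31 ± 0.16) and Fosb, a partner of Jun, from 126 ± 28.4 to 187 ± 16.8. Ier5 fell (-0.32 ± 0.06), and Ier3, at 90.8 ± 23.7 and 62.3 ± 8.31, did not pass the stricter adjustment. Of 17 clock genes 12 were listed, 1 higher and 11 lower over the listed genes and 1 and 10 under the stricter adjustment. Their median was -0.41 against -0.13 for the table. Under the stricter adjustment 33.1% of the table was higher and 38.2% lower. Dbp, a clock output factor, fell from 1881 ± 151 to 1205 ± 123 (-0.64 ± 0.07), with 18.0% of its exons overlapped by Sphk2. The repressor genes Ciart, Per3 and Per1 fell, with log2 fold changes of -0.63 ± 0.12, -0.58 ± 0.06 and -0.50 ± 0.06. Nfil3, a repressor that opposes Dbp, was the 1 listed clock gene that rose.

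Profiles over the 8 libraries were compared with those of the 2902 other listed genes with a mean of at least 100, by the root mean square difference in log2(value + 1) after subtracting each gene's control mean. Since this measure includes the difference between groups, likeness is a description. The nearest profile to Txnip was that of Rgs16, at 0.21 log2 units. With a control mean of 55.5, Rgs16 met the minimum of 100, set on all 8 libraries, only through its SeMet values. In Rgs16 SeMet libraries 1 and 2 were also the higher ones, but the highest was library 1 (204). Its lowest control was library 1 (42.5), while that of Txnip was library 3. Gpr179, an orphan receptor known from retinal bipolar cells, came next at 0.27 and rose from 323 ± 8.54 to 851 ± 75.9. Scel, a protein of the cornified envelope, Gcg, which encodes glucagon, and Id1 followed at 0.37 to 0.39. Scel, with a control mean of 88.9, also met the minimum only through its SeMet values. Id1 shared the order of SeMet libraries seen in Txnip, with 370 and 373 in libraries 1 and 2 and 293 and 280 in libraries 3 and 4. In Gpr179 libraries 3 and 4 were instead the higher ones, with 761 and 821 in libraries 1 and 2 and 932 and 891 in libraries 3 and 4.

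The genes nearest to Klf10 lay closer to it than those nearest to Txnip did. They were Prkcb (protein kinase C beta), the noncoding A130014A01Rik, the cholesterol synthesis gene Dhcr7, the crystallin gene Cryba2 and Anks4b, an ankyrin repeat scaffold, at 0.06 to 0.07 log2 units. Prkcb rose from 1647 ± 105 to 2245 ± 43.1 and Cryba2 from 785 ± 17.4 to 1115 ± 93.6. Anks4b rose from 209 ± 6.60 to 297 ± 7.09. Txnip and Klf10 were 0.74 log2 units apart, which placed Klf10 at rank 99 among the neighbours of Txnip and Txnip at rank 2752 among those of Klf10.

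**Figure D5:**
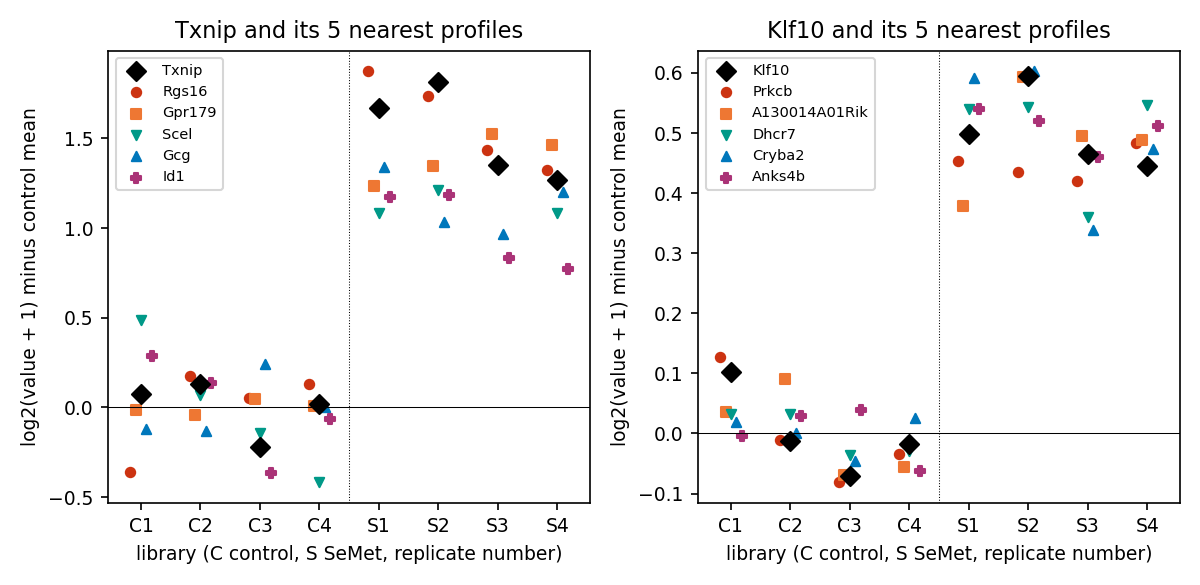
Log2(value + 1) minus the control mean in each library for Txnip (left) and Klf10 (right), each with its 5 nearest profiles; the dotted line parts the 4 control from the 4 SeMet libraries. Rgs16 lies 0.21 log2 units from Txnip on root mean square, a measure that includes the difference between groups, and the genes nearest to Klf10 lie within 0.07.

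The sequence pair and the position in the genome were also set beside the levels. Of 2516 listed genes with a promoter window 5 held the spaced pair, 2 higher and 3 lower. Besides Txnip these were Rbmxl1 (0.19 ± 0.06), Fnip1 (-0.14 ± 0.04), Fem1b (-0.17 ± 0.05) and Man2b2 (-0.19 ± 0.04), named for the sequence pair after their values were seen. Of these 4, Man2b2 alone passed the stricter adjustment. Within 1 Mb of Txnip 7 other genes were listed. The nearest, Gm16253, begins 15.1 kb beyond the end of Txnip on the same strand. It rose from 24.6 ± 5.11 to 51.2 ± 8.40 (1.03 ± 0.20), and exons of Polr3gl overlap 10.4% of it. The next, Nudt17, was lower (-1.02 ± 0.29) and did not pass the stricter adjustment (limma adjusted p = 0.0521). Within 1 Mb of Klf10 3 genes were listed, of which Ncald rose (0.23 ± 0.05), Rrm2b fell (-0.29 ± 0.06) and Azin1 did not pass the stricter adjustment (0.10 ± 0.04).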

How the data were processed

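STAR, featureCounts and the build mm10 are named in the submitters' processing notes; their versions and settings, the annotation and the scaling tool are not given in sources used here. Each deposited value is a signal, taken to be a gene's count divided by 1 size factor per library, though the authors' labels do not say so: in each library 100% of values were multiples of a single step (tolerance 1e-06). A second check for recoverable reads did not hold in every library, so no count test was run, and total depth is unknown.

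Symbols came from GENCODE M21 for 3276 of 3278 genes. Log2(value + 1) was fitted with limma 3.58.1 (R 4.3.3, statmod 1.5.0), trended and robust, with treatment as the only term, Benjamini-Hochberg adjusted over the table. Fold changes are on this scale, which understates those of low genes. The script was tested on simulated data first. The adjustment over all annotated genes set unlisted genes to a p of 1.

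The members and lists were chosen with earlier results of these data known. Named genes were the members, up to 4 genes per list with the largest absolute change, and the 5 nearest profiles; other list members, neighbours and promoter-pair genes were chosen after their values were seen. Sample titles gave the groups and replicate numbers. The replicates are called experimental, with no word on separate cultures; p-values therefore reflect how far these particular samples scatter, and that scatter may be technical. No 2 libraries were identical. 1 gene of the glucose uptake list is not reported here, and that list's counts leave it out.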

Additional observations from a re-analysis of the deposited data

Results flagged for a closer look

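Among 52 genes, taken from the members, the lists and the nearest profiles, 104 groups of 4 libraries were examined for 1 library apart from its group, and 6 had one; chance gives about 1 in 20 groups. Neither Txnip nor Klf10 was among them. Under SeMet, Ppp1r3b was at 193 in library 1 against 153 to 157 in the others, Ucn3 at 15525 in library 1 against 15048 to 15114, Chga at 190378 in library 4 against 196847 to 197605, and Dhcr7 at 1498 in library 3 against 1696 to 1705. In controls, Txnrd2 was at 1259 in library 4 against 1141 to 1153, and Krt7 at 9518 in library 1 against 10281 to 10350.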

How the results depend on the processing

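The log2 fold change of Txnip was 1.43 to 1.61 when 1 library was left out, 1.51 with a pseudocount of 10, 1.57 after rescaling by the median ratio and 1.47 as a ratio of group medians (chosen after seeing the data). For Klf10 the same values were 0.47 to 0.53, 0.50, 0.55 and 0.50. Their difference stayed at 0.96 to 1.09 and the median of the ChREBP or MondoA targets at 0.17 to 0.23 with 1 library left out. The count of passing genes ran from 3260 to 3269 with 1 library left out and was 3163 after rescaling, 3053 of the genes with a mean of at least 50, 3267 without trended and robust variance, 3272 with the replicate block, and 2339 under the adjustment over all annotated genes, which was also added after seeing the data. Deviations of same-numbered libraries from their group means correlated at 0.01, 0.15, 0.02 and -0.01 over the table. Libraries of unlike number correlated at -0.14 to 0.14. With 4 libraries per group, whether the numbers pair the samples cannot be told from these values. No direction reversed among these results or among 109 other genes refitted. Of those, 20 lost their call under the adjustment over all annotated genes and 5, among them Fasn and Ins1, under another alternative; under the block Fasn did (limma adjusted p = 0.0512). The rule by which the authors listed genes is unknown, and all values rest on listed genes.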
